A study of Mus musculus with 17 samples.

Results

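The 49 genes described here were chosen as markers of the endothelium of lung blood vessels. They were taken by symbol from a list of capillary, arterial, venous and pan-endothelial genes out of 54146 genes in the files. Whether other lung cells add to their counts was not tested. All 49 had enough counts to be among the 19557 genes tested. By role, 8 mark aerocytes, 5 general capillary cells, 5 arteries and 6 veins; a further 7 encode junction and adhesion proteins of all endothelium, 9 receptors and signals, 5 transcription factors, 2 inducible adhesion molecules and 2 caveolar proteins. The lungs came from mice of 1 strain label (FVB/6DT1) that were wild type (WT) or knockout (KO) for Clic4, which encodes chloride intracellular channel 4, a protein that also occurs in endothelial cells. RNA was sequenced from 4 WT and 2 KO lungs labelled day 0 (mice aged 6 weeks) and from 6 WT and 5 KO lungs labelled day 14 (8 weeks). Day and age therefore cannot be told apart, and the treatment behind the day labels, the knockout allele and any promoter that drives it are not given in the sources used here. The design text of the series states other group sizes than the sample labels; the labels were followed. No label ties a library to an animal, so every p-value is set by how far these libraries scatter, and that scatter may be technical.

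The lung capillary bed holds endothelial cells of more than one kind. Aerocytes are large, thin cells of the gas exchange surface, known for the carbonic anhydrase Car4, the endothelin receptor Ednrb and the peptide ligand Apln. General capillary cells carry the apelin receptor Aplnr, the fenestral diaphragm protein Plvap and Gpihbp1, which holds lipoprotein lipase on the vessel wall, and they can renew the capillary bed. The endothelial state in all vessels depends on transcription factors of the ETS and SOX families, among them Erg and Sox17, while Klf2 and Klf4 respond to flow.

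Of the 49 genes, 27 had a promoter in the RefSeq table on GRCm38.p6, the build that the files' mm10 names, and the table held no entry for the other 22. Aerocyte promoters are shown because Car4 was the one gene of the set with a called difference between genotypes that had an entry, and Ednrb and Kdr, the main VEGF receptor, mark the same cells. Each is the 250 bases before the RefSeq start, 5′ to 3′ on the gene's strand, with the ETS core GGAA or its reverse complement TTCC in capitals.
Car4, chr11:84957504-84957753, plus strand: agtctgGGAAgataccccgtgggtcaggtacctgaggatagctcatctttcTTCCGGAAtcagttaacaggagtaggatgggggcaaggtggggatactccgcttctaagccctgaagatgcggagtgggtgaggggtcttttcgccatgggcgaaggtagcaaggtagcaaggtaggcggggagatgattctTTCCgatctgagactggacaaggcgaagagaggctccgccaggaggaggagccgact
Ednrb, chr14:103843702-103843951, minus strand: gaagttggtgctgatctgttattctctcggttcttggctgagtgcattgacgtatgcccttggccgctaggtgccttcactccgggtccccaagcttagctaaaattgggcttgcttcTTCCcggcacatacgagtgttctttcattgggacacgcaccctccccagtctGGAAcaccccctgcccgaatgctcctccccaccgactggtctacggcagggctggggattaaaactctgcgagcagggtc
Kdr, chr5:75978456-75978705, minus strand: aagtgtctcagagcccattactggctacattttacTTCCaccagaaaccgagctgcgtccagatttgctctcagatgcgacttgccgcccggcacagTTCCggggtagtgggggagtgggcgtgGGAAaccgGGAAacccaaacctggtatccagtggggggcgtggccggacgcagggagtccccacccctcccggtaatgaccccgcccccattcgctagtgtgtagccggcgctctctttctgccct
The Ednrb window lies inside an intron of a longer GENCODE transcript. The core was found 4 times in the Car4 window, 2 times in that of Ednrb and 4 times in that of Kdr, counting both strands. It is a common word: 93.4% of 32851 promoters of this length held it, and so did 30 of the 32 promoters of the endothelial genes (93.8%). The longer ETS site ACCGGAAG, which contains the core, was in 1.7% of all promoters and in none of the 32. The KLF box CACCC was in 52.0% of all and in 62.5% of the 32, and the TATA box TATAAA in 12.4% of all and 15.6% of the 32. These counts describe letters in a window and say nothing of binding.

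The libraries held 20607811 to 35743830 counts each, and the least counted of the 49 genes, Sele, had 60 counts in its lowest library. Clic4 was lower in every KO library (301.5 to 399.1 counts per 1000000, CPM) than in every WT library (924.7 to 1281 CPM), the direction that the labels give. Its RNA was reduced in KO and not absent, with 6227 counts in the lowest library. Markers of the lung epithelium were abundant in all 17 libraries, with a summed 17060 to 24780 CPM for 7 alveolar type 2 genes, so the tissue label was met. A pair of libraries stood apart. KO day 14 replicate 5 was the shallowest and had 31820 CPM of 5 red-cell genes, and KO day 0 replicate 2 had 74.86 CPM of 5 fat-cell genes, the highest of all libraries in each case. Calls were also made without these libraries, and the Plvap value at day 14 and the adjusted p of Gpr182 are given both ways. Ranges, overlaps, sums and list levels are given only with them, so KO day 0 includes replicate 2 throughout.

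Levels between genes were compared as fragments per kilobase and 1000000 (FPKM), which corrects for length. The highest mean FPKM over the 17 libraries were those of Cav1 (677), the coat protein of caveolae, Egfl7 (576), a secreted endothelial protein, Cldn5 (542), a tight junction claudin, and Ramp2 (506), the partner of Calcrl in the adrenomedullin receptor. Plvap followed at 381, Pecam1, the adhesion molecule CD31, at 344 and the VE-cadherin gene Cdh5 at 318. Of the capillary markers, Gpihbp1 reached 228 and Car4 203, against 27.5 for Ednrb, 27.3 for Aplnr and 20.2 for Apln. Vwf, the clotting factor carrier, stood at 141 and the arterial connexin Gja5 at 23.5. The lowest were the selectins Sele (1.58) and Selp (2.59), the kinase Bmx (4.91) and the nitric oxide synthase Nos3 (5.86). Exons of Egfl7, Ramp2, Nos3, Gja5, Sox17, Ephb4, Nr2f2, Vcam1, Selp, Prx, Tbx3, Icam1 and Gpr182 overlap those of other genes, and whether the counting used strand is not given in the sources used here, so part of their counts may belong to a neighbour.

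The first question was which endothelial genes differed between KO and WT lungs. At day 14, 1 of the 49 was called at an adjusted p under 0.05 (edgeR's quasi-likelihood test with Benjamini-Hochberg adjustment over all genes), where 0.107% of all genes were called. That gene was Car4, which rose in KO. DESeq2 called 3 of the 49 at day 14 (Car4, Flt1 and Gpr182) and 0.558% of all genes. EdgeR without WT day 14 replicate 5 called Car4 and Gpr182, in a fit with 9 genes called higher and 9 lower over all genes. At day 0 none was called, where 0.0256% of all genes were; DESeq2 and limma-voom also called none, and 6 of the 49 had an unadjusted p under 0.05 (6.74% of all genes). With both days fitted together, genotype and day as separate terms, 2 of the 49 were called for genotype against 0.184% of all genes: Car4 rose and Gpr182, an atypical chemokine receptor of endothelium, fell. DESeq2 called 7 in the joint fit, against 1.14% of all genes, and edgeR called 4 when KO day 0 replicate 1 was left out (Car4, Gpr182, Plvap and Vwf). Over all genes, that edgeR fit called 29 higher and 12 lower, against 22 and 14 with every library. The joint fit uses the same libraries as the single days and is not independent of them. In bulk lung, fewer cells of a kind and less RNA per cell cannot be told apart.

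**Figure D1:**
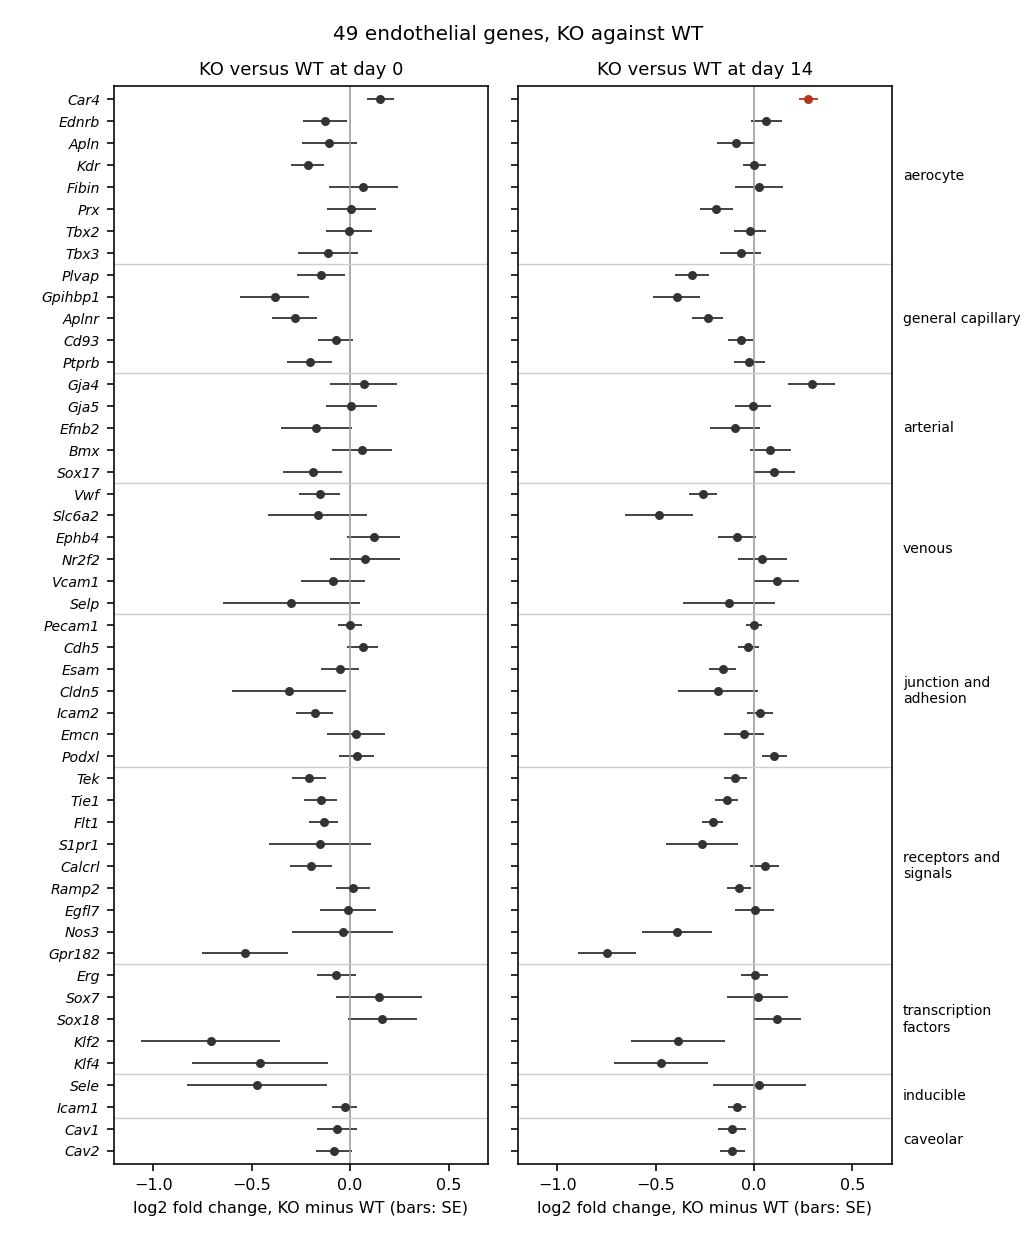
Log2 fold change of KO against WT at day 0 (left) and day 14 (right) for each of the 49 genes, grouped by role; points are estimates, bars are SE, and red marks an adjusted p under 0.05. Car4 at day 14 is the red point at +0.28, and all 5 general capillary genes lie left of 0 at both days.

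The aerocyte marker Car4 (chr11:84957786-84966044, plus strand), a carbonic anhydrase on the cell surface, was measured at 196.4, 222.6, 209.4 and 211.7 CPM in WT at day 0 and at 241.4 and 226.0 CPM in KO. At day 14 the WT libraries ran from 173.6 to 196.7 CPM with a median of 193.9 CPM. The KO libraries at day 14 had 213.0, 241.3, 226.9, 243.4 and 229.1 CPM. In CPM the genotypes did not overlap at either day. Every KO library was also above the highest WT value of the set, except KO day 14 replicate 1 at 213.0 CPM. In FPKM the genotypes overlapped at day 0, with 213.6 in WT replicate 2 and 211.5 in KO replicate 2. The log2 fold change was +0.15 at day 0 (SE 0.0671, adjusted p = 0.724), +0.28 at day 14 (SE 0.0471, adjusted p = 0.018) and +0.24 over both days (SE 0.0398, adjusted p = 0.0117). Leaving out KO day 14 replicate 2 or 4 ended the day 14 call (adjusted p = 0.0562 and 0.0766), and so did fitting only those 2 groups (0.0577); the call over both days held in all 17 runs without 1 library. Set against Pecam1 in the same library, Car4 had an FPKM ratio of 0.637 to 0.655 in KO at day 0 and 0.638 to 0.661 at day 14, against 0.571 to 0.599 and 0.492 to 0.558 in WT.

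No other aerocyte gene was called. Over both days the 8 genes of the list had a median log2 value of -0.042, with 3 above 0 and 5 below, beside a median of -0.00069 over all genes tested. Ednrb, the endothelin B receptor, had 106.8, 121.8, 112.3 and 115.2 CPM in WT and 101.0 and 107.9 CPM in KO at day 0. Ednrb at day 14 had 81.86 to 100.7 CPM in WT (median 91.95) and 90.0, 87.43, 113.4, 109.6 and 81.54 CPM in KO, so the genotypes overlapped at both days. Its log2 value over both days was 0.0017 (SE 0.0658, adjusted p = 0.996). Kdr had 743.2, 833.2, 762.0 and 774.2 CPM in WT and 676.0 and 664.1 CPM in KO at day 0, without overlap. In the day 14 libraries Kdr had 622.4 to 749.9 CPM in WT (median 690.6) and 730.4, 734.6, 722.2, 671.7 and 595.3 CPM in KO, so the day 0 difference of -0.22 (SE 0.0834, adjusted p = 0.697) stood beside 0.0017 at day 14 (SE 0.0578, adjusted p = 0.997). Kdr was also the 1 gene of the 49 with an unadjusted p under 0.05 for the difference between the days' genotype effects (+0.22, SE 0.101, adjusted p = 0.988), where 4.55% of all genes passed that level. No gene of the 49 was called for that difference by edgeR, DESeq2 or limma-voom, and 0.0% of all genes were in the main edgeR fit. The remaining members had log2 values over both days of -0.09 for Apln, 0.04 for the secreted protein gene Fibin, -0.12 for Prx (periaxin), -0.01 for Tbx2 and -0.08 for Tbx3, both T-box factors. None of these passed, with adjusted p from 0.547 to 0.958.

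The general capillary genes were all below 0. Each of the 5 had a negative log2 value at day 0 (median -0.205), at day 14 (median -0.234) and over both days (median -0.25). None was called by edgeR with every library in the fit. Gpihbp1 had 181.0, 194.0, 203.2 and 167.0 CPM in WT and 131.0 and 154.5 CPM in KO at day 0. By day 14 the values of Gpihbp1 were 136.3 to 218.1 CPM in WT (median 150.0) and 139.4, 105.7, 120.8, 112.8 and 142.3 CPM in KO. The genotypes were apart at day 0 and overlapped at day 14, where the low libraries within each genotype were those also low in S1pr1 (described with the spread between libraries). The log2 values were -0.38 (SE 0.174, adjusted p = 0.729), -0.39 (SE 0.121, adjusted p = 0.358) and, over both days, -0.39 (SE 0.0959, adjusted p = 0.123). Aplnr had 102.8, 116.3, 99.33 and 93.64 CPM in WT and 90.35 and 79.03 CPM in KO at day 0. For Aplnr the day 14 libraries gave 86.86 to 112.9 CPM in WT (median 102.1) and 86.8, 78.4, 101.6, 87.44 and 79.61 CPM in KO, with overlap at day 14 only. Its value over both days was -0.25 (SE 0.0632, adjusted p = 0.123).

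Plvap had 687.6, 693.3, 804.8 and 678.0 CPM in WT and 742.2 and 549.7 CPM in KO at day 0, which overlap. Day 14 gave Plvap values of 639.3 to 816.2 CPM in WT (median 753.8) and 573.9, 587.6, 558.6, 573.8 and 733.4 CPM in KO, where 4 KO libraries lay below every WT library and replicate 5, the shallow library, lay among them. The log2 value at day 14 was -0.32 (SE 0.0868, adjusted p = 0.268), and -0.39 (adjusted p = 0.0213) when KO day 14 replicate 5 and KO day 0 replicate 2 were left out, a setting chosen after seeing the data. Cd93, a C-type lectin receptor, stood at -0.07 and the phosphatase gene Ptprb at -0.08 over both days (adjusted p = 0.645 and 0.684). DESeq2 called Gpihbp1, Aplnr and Plvap lower over both days (adjusted p = 0.013, 0.0283 and 0.0492). The lists were read side by side and their difference was not tested. Within libraries, the FPKM ratio of Car4 to Plvap was 0.453 to 0.557 in WT and 0.568 to 0.706 in KO at day 0, and 0.403 to 0.526 against 0.541 to 0.739 at day 14. These are single genes picked from the lists, and the difference between the list means overlapped between the genotypes (its values are given with the list levels).

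**Figure D2:**
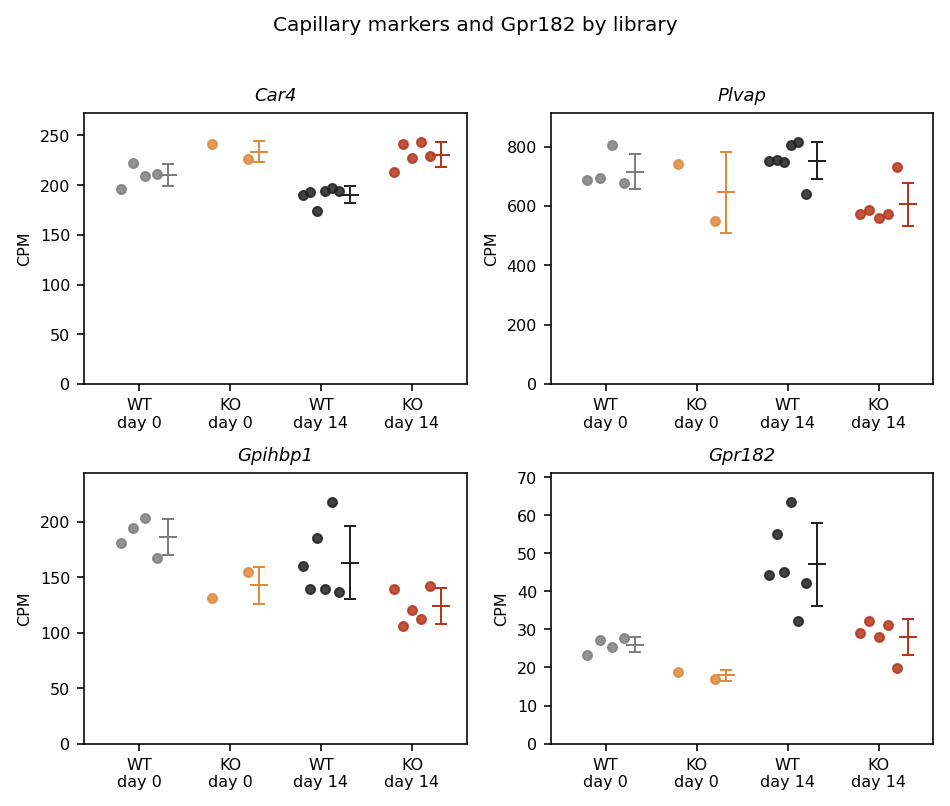
CPM of Car4, Plvap, Gpihbp1 and Gpr182 in each library (points) with the group mean and SD beside them (n = 4, 2, 6 and 5); axes start at 0. In CPM, Car4 is higher and Gpr182 lower in KO than in WT at both days without overlap. For Plvap, 1 KO library at day 14 lies among the WT libraries (733.4 CPM).

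Gpr182 (chr10:127747276-127751732, minus strand) had 23.4, 27.18, 25.43 and 27.87 CPM in WT and 18.88 and 16.97 CPM in KO at day 0. At day 14 Gpr182 had 32.25 to 63.55 CPM in WT (median 44.59) and 29.05, 32.1, 27.93, 31.09 and 19.93 CPM in KO. In CPM the genotypes did not overlap at either day. In FPKM they met at day 14, with 8.37 in both WT replicate 5 and KO replicate 2. The log2 value was -0.53 at day 0 (SE 0.217, adjusted p = 0.712), -0.75 at day 14 (SE 0.148, adjusted p = 0.0776) and -0.68 over both days (SE 0.121, adjusted p = 0.0249). The last call was lost without KO day 0 replicate 2, WT day 14 replicate 3, KO day 14 replicate 1 or KO day 14 replicate 3 (adjusted p = 0.0509 to 0.0621), and without both libraries that stood apart (adjusted p = 0.0663). An exon of Gpr182 overlaps one of Zbtb39 on the other strand; Zbtb39 itself had 25.3 to 33.24 CPM over all libraries and a log2 value of -0.03 for genotype (SE 0.0569, adjusted p = 0.884).

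Gpr182 is also known from lymphatic vessels, so lymphatic genes are given beside it. Of 7 such genes, 6 had a negative log2 value for genotype (median -0.25) and none was called; Lyve1, a hyaluronan receptor, stood at -0.88 (SE 0.192, adjusted p = 0.1), Flt4, the VEGF-C receptor, at -0.25 (SE 0.0577, adjusted p = 0.1) and Prox1, the defining transcription factor, at 0.0067 (SE 0.124, adjusted p = 0.992). The summed level of the 7 was 519.8 to 586.6 CPM in WT and 443.6 to 450.6 CPM in KO at day 0, and 517.7 to 693.5 against 394.0 to 504.8 CPM at day 14. The sum is weighted by abundance, and the 7 did not fall alike. Mean FPKM in KO and WT was 50.7 and 89.8 for Lyve1, 82.2 and 101 for Pdpn and 1.73 and 2.2 for Reln. It was 104 and 106 for Ccl21a and 3.32 and 3.42 for Mmrn1. The part of these lymphatic genes in the Gpr182 result was not tested.

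In the list of receptors and signals, all 9 genes had a log2 value below 0 for genotype over both days (median -0.141), of which Gpr182 was called. Flt1, a VEGF receptor that also acts as a decoy, had 392.8, 430.4, 427.7 and 420.4 CPM in WT and 353.6 and 407.6 CPM in KO at day 0. For Flt1 the day 14 values were 394.5 to 452.0 CPM in WT (median 441.1) and 371.6, 388.3, 361.0, 389.5 and 343.9 CPM in KO, without overlap. Its log2 value was -0.21 at day 14 (SE 0.0525, adjusted p = 0.188; 0.0316 by DESeq2). The angiopoietin receptor Tek and its partner Tie1 stood at -0.13 and -0.14 over both days (adjusted p = 0.326 and 0.264). S1pr1, the sphingosine-1-phosphate receptor, stood at -0.23 and Nos3 at -0.27 (adjusted p = 0.592 and 0.528), and Calcrl, Ramp2 and Egfl7 lay between -0.05 and -0.00076.

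Vwf had 636.3, 729.8, 699.6 and 712.6 CPM in WT and 713.5 and 535.4 CPM in KO at day 0, with overlap. Vwf at day 14 had 698.8 to 807.6 CPM in WT (median 742.9) and 638.5, 608.3, 625.5, 698.7 and 561.6 CPM in KO. The highest KO library at day 14 lay just below the lowest WT library, and the log2 value was -0.26 (SE 0.0722, adjusted p = 0.268). In FPKM the genotypes overlapped, with 147.8 in KO replicate 4 and 136.1 in WT replicate 3. Car4, Gpr182, Flt1 and Vwf were the 4 genes of the 49 whose genotypes did not overlap at day 14 in CPM, 1 higher and 3 lower. Of all genes, 0.977% did not overlap in either direction and 0.394% in the lower direction. At day 0, with 2 KO libraries, 1 gene was higher and 11 lower without overlap, against 18.0% of all genes in either direction and 9.12% lower.

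Read over the whole set, 37 of the 49 genes had a negative log2 value for genotype (median -0.07), where 50.3% of all genes tested did. Of the 49, 12 were lower and 2 higher at an unadjusted p under 0.05, against 4.85% and 5.99% of all genes. These genes vary together between libraries, so the count is a description. Markers of other cells also stood to 1 side of 0 for genotype: all 7 alveolar type 2 genes (median 0.131) and all 5 red-cell genes (median 0.358) were above 0, while 7 of 8 lymphoid genes (median -0.278) and 5 of 6 heart muscle genes (median -0.364) were below it, none of them called. The red-cell value includes KO day 14 replicate 5, at 31820 CPM beside a KO day 14 median of 10170 CPM. It is not given without that library. The part of these other cells in the endothelial values was not tested. The arterial list had a median of 0.01; its connexin Gja4 stood at +0.22 (adjusted p = 0.426), Efnb2, the arterial ephrin, at -0.12, Bmx at 0.08 and Sox17 at 0.0095. Gja5 had 65.37, 74.26, 66.75 and 75.7 CPM in WT and 75.84 and 65.74 CPM in KO at day 0, and 49.88 to 79.84 CPM in WT (median 63.98) and 63.77, 63.91, 62.29, 56.85 and 71.31 CPM in KO at day 14. Its groups overlapped throughout (log2 -0.0016 for genotype, SE 0.0717, adjusted p = 0.997).

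Pecam1 was the steadiest member. It had 1012, 1086, 1077 and 1046 CPM in WT and 1083 and 1023 CPM in KO at day 0, and 1004 to 1062 CPM in WT (median 1050) and 982.8, 1105, 1005, 1108 and 1020 CPM in KO at day 14. Its log2 value for genotype was -0.00087 (SE 0.0341, adjusted p = 0.996), and its SD within groups, 0.0553 on the log2 scale, was the smallest of the 49. The other junction and adhesion genes stood between -0.22 (Cldn5) and +0.08 (Podxl, podocalyxin) for genotype. Among the transcription factors Erg stood at -0.02, Sox7 at 0.06 and Sox18 at 0.13, with Klf2 at -0.49 (SE 0.197, adjusted p = 0.379) and Klf4 at -0.47 (SE 0.19, adjusted p = 0.385). The caveolar genes Cav1 and Cav2 both stood at -0.10, and Icam1 and Sele at -0.07 and -0.13.

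**Figure D3:**
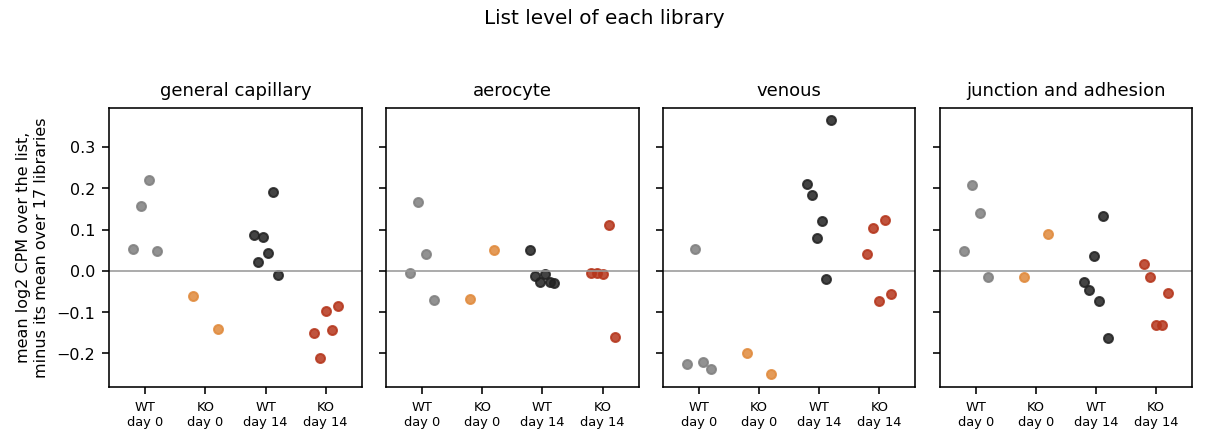
Mean log2 CPM over the general capillary (5 genes), aerocyte (8), venous (6) and junction and adhesion (7) lists in each library, minus its mean over the 17 libraries. For the general capillary list the KO libraries lie from -0.212 to -0.060 and the WT libraries from -0.011 to 0.220; the aerocyte points overlap between all groups.

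At the level of single libraries, the general capillary list averaged -0.212 to -0.060 in the 7 KO libraries and -0.011 to 0.220 in the 10 WT libraries, on the log2 scale around its mean over all libraries. The genotypes did not overlap over all libraries, and leaving libraries out of these values could not have made them overlap. For the aerocyte list the KO values (-0.160 to 0.112) spanned most of the WT range (-0.070 to 0.168). The list of 9 receptors and signals was also apart between the genotypes (-0.168 to -0.054 in KO and -0.040 to 0.205 in WT). That list includes Gpr182, with a log2 value for genotype of -0.68 beside a list median of -0.141. Its level without Gpr182 was not computed, so the separation may rest on that gene. The general capillary mean minus the aerocyte mean of the same library overlapped between the genotypes, at -0.255 to 0.074 in KO and -0.011 to 0.216 in WT. Genes of other vessel wall cells were read in the same way. All 6 smooth muscle genes had a positive log2 value for genotype (median 0.236), with a summed 688.3 to 867.1 CPM in WT and 924.8 to 948.9 CPM in KO at day 0, and 699.9 to 851.6 against 782.9 to 1015 CPM at day 14. Des, the desmin gene, was called (+0.25, SE 0.0494, adjusted p = 0.0412), and Acta2 stood at +0.29 (adjusted p = 0.123) and Actg2 at +0.39 (adjusted p = 0.114). The 7 pericyte genes had a median of -0.003. The part of these cells in the endothelial values was not tested.

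The second question was how the endothelial genes differed between day 14 and day 0. No gene of the 49 was called within WT or within KO, nor was any gene of the whole table by edgeR (0.0%). At an unadjusted p under 0.05 there were 10 of 49 in WT (9.06% of all genes) and 5 of 49 in KO (9.05%). DESeq2 called 2 in WT, Gpr182 and Slc6a2 (0.563% of all genes), and none in KO; limma-voom called none of the 49 in either. Without WT day 14 replicate 5, edgeR called Gpr182 in WT, in a fit with 11 genes called higher and 11 lower over all genes. With both genotypes in the fit, 1 of the 49 was called, against 0.399% of all genes; with DESeq2 it was 7, against 2.66%. Gpr182 rose by +0.78 (SE 0.126, adjusted p = 0.0327), with a value of +0.86 in WT and +0.65 in KO, and its days did not overlap in either genotype. That call was lost without any of 6 libraries (WT day 0 replicates 1 and 3, both KO day 0 libraries, WT day 14 replicate 6 and KO day 14 replicate 1; adjusted p = 0.0517 to 0.0687). Zbtb39, its neighbour, stood at +0.08 (adjusted p = 0.549).

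The venous genes were all above 0 between the days. The 6 of them had a median log2 value of 0.269 in WT, 0.312 in KO and 0.261 over both genotypes, beside 0.0027 for all genes. Slc6a2, the noradrenaline transporter, had 46.63, 38.68, 47.07 and 44.46 CPM in WT and 39.14 and 39.72 CPM in KO at day 0. Slc6a2 at day 14 had 54.37 to 94.12 CPM in WT (median 74.37) and 44.33, 43.01, 41.71, 78.72 and 65.82 CPM in KO. The days did not overlap in either genotype, although 3 KO libraries at day 14 lay within the range of WT at day 0, and the log2 value was +0.67 (SE 0.15, adjusted p = 0.0597). Nr2f2, the transcription factor of venous identity, had 61.23, 72.74, 64.89 and 64.56 CPM in WT and 69.1 and 69.72 CPM in KO at day 0. Nr2f2 at day 14 had 64.74 to 114.3 CPM in WT (median 90.25) and 91.62, 97.71, 91.38, 101.0 and 72.79 CPM in KO, a log2 value of +0.41 (SE 0.103, adjusted p = 0.0865). Its days were apart in KO and overlapped in WT. In FPKM they overlapped in KO too, with 29.5 in day 0 replicate 2 and 28.44 in day 14 replicate 5. Selp stood at +0.39, Ephb4 at +0.13, Vcam1 at +0.11 and Vwf at +0.07, with adjusted p from 0.387 to 0.656. Platelets also carry the products of Vwf and Selp, so 6 platelet genes were read beside the venous list. All 6 were likewise above 0 between the days, with a median of 0.254 in WT, 0.662 in KO and 0.413 over both genotypes; 4 had an unadjusted p under 0.05 over both genotypes and none was called. Their summed level was 34.82 to 75.35 CPM in WT and 44.29 to 45.12 CPM in KO at day 0, and 52.58 to 85.07 against 51.87 to 98.65 CPM at day 14. The 6 heart muscle genes were above 0 too over both genotypes (median 0.175). The part of these cells in the venous values was not tested.

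**Figure D4:**
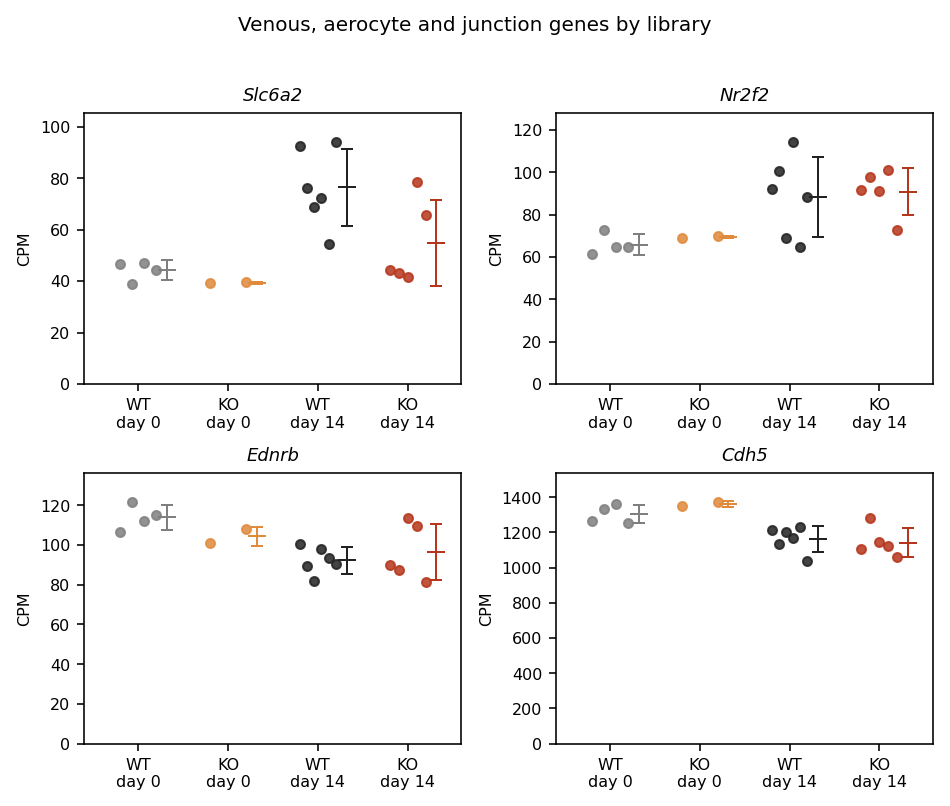
CPM of Slc6a2, Nr2f2, Ednrb and Cdh5 in each library (points) with the group mean and SD beside them (n = 4, 2, 6 and 5); axes start at 0. Slc6a2 is higher at day 14 than at day 0 within each genotype, and Cdh5 is lower, without overlap in either.

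The junction and adhesion genes were below 0 between the days, 7 of 7 over both genotypes (median -0.137), and none was called in the main edgeR fit. Cdh5 had 1266, 1333, 1363 and 1252 CPM in WT and 1349 and 1374 CPM in KO at day 0. The day 14 values of Cdh5 were 1035 to 1232 CPM in WT (median 1185) and 1105, 1279, 1143, 1122 and 1058 CPM in KO, lower without overlap in each genotype, with a log2 value of -0.20 (SE 0.0454, adjusted p = 0.0564). Esam, an adhesion molecule of tight junctions, had 326.6, 367.4, 351.1 and 311.3 CPM in WT and 307.7 and 346.8 CPM in KO at day 0. The day 14 values of Esam were 282.0 to 376.5 CPM in WT (median 305.7) and 302.1, 275.1, 264.0, 275.0 and 289.0 CPM in KO, apart in KO only (log2 -0.15 over both genotypes, adjusted p = 0.228). In FPKM the KO days overlapped, with 192.4 in day 0 replicate 1 and 195.3 in day 14 replicate 1. Emcn, a sialomucin, stood at -0.23 (adjusted p = 0.213), and Pecam1 at -0.01 (SE 0.0351, adjusted p = 0.897). Lists of other lung cells lay on the same side between the days: 7 of 7 alveolar type 2 genes (median -0.121), 4 of 4 mesothelial genes (median -0.134) and 5 of 6 fibroblast genes (median -0.134), none of them called. Their part in the values of the junction genes was not tested.

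Leaving out 1 WT library at day 14, replicate 5, took the number of the 49 genes called between the days from 1 to 7. Gpr182, Slc6a2 and Nr2f2 were higher and Cdh5, Esam, Emcn and Apln lower. Over all genes tested, the calls went from 35 higher and 43 lower to 140 higher and 170 lower. Without KO day 14 replicate 2, 3 of the 49 were called (58 higher and 74 lower over all genes). Without KO day 14 replicate 5 it was 2 of the 49 (84 higher and 79 lower over all genes). Among the aerocyte genes, Ednrb did not overlap between the days in WT (log2 -0.31, SE 0.0826, adjusted p = 0.254) and overlapped in KO (-0.12, SE 0.107, adjusted p = 0.777); the difference between these was not called. Apln stood at -0.28 over both genotypes (adjusted p = 0.116) and Tbx2 at +0.20 (adjusted p = 0.191). Calcrl had 1209, 1230, 1138 and 1073 CPM in WT and 988.7 and 1036 CPM in KO at day 0. Calcrl at day 14 had 966.1 to 1225 CPM in WT (median 1166) and 1077, 1038, 1372, 1267 and 1210 CPM in KO, apart in KO only (+0.24, SE 0.102, adjusted p = 0.495). Its KO days overlapped in FPKM, with 290.2 in day 0 replicate 2 and 285.9 in day 14 replicate 2. Without overlap in CPM there were 4 of 49 genes in WT (2.58% of all genes) and 8 of 49 in KO (11.8%).

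A part of the set varied widely between libraries of the same group. The median SD within groups was 0.164 on the log2 scale for the 49 genes and 0.187 for all genes, with Sele (0.428), Klf2 (0.419), Klf4 (0.408), Selp (0.405) and Cldn5 (0.347) the most variable. S1pr1 was picked out after its values were seen: at day 14 it had 462.6, 422.9 and 474.3 CPM in WT replicates 2, 4 and 6 and 651.0, 733.2 and 752.4 CPM in WT replicates 1, 3 and 5. In KO at day 14 it had 342.9, 449.1 and 420.5 CPM in replicates 2, 3 and 4 and 555.8 and 656.8 CPM in replicates 1 and 5. The same libraries were the low ones for Cldn5 (478.7 to 656.1 CPM against 741.9 to 919.5 CPM in WT, and 450.2 to 518.0 against 718.5 and 822.0 CPM in KO). They were also the low ones for Efnb2 (291.8 to 320.2 against 434.3 to 452.3 CPM in WT, and 266.6 to 354.5 against 377.5 and 401.2 CPM in KO) and Klf4 (132.2 to 210.4 against 239.5 to 280.7 CPM in WT, and 100.3 to 122.4 against 199.7 and 212.7 CPM in KO). Gpihbp1, the general capillary gene, had the same low libraries at day 14, with 136.3 to 139.8 against 160.1 to 218.1 CPM in WT and 105.7 to 120.8 against 139.4 and 142.3 CPM in KO. The genes beside S1pr1 were picked because they share the split, and how many of the 49 or of all genes share it was not counted. Pecam1 showed no such split. Klf2 did not follow it in WT, where replicate 2 was the highest day 14 library (193.1 FPKM). Egfl7 went the other way in WT at day 14, with 578.8 to 694.2 FPKM in replicates 2, 4 and 6 and 403.1 to 538.3 FPKM in the others. Its KO libraries showed no such split. At day 0 the 6 libraries had 563.6 to 764.1 CPM of S1pr1. No label gives a batch that goes with these libraries, and the part of this spread in the genotype and day values of these genes was not tested.

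**Figure D5:**
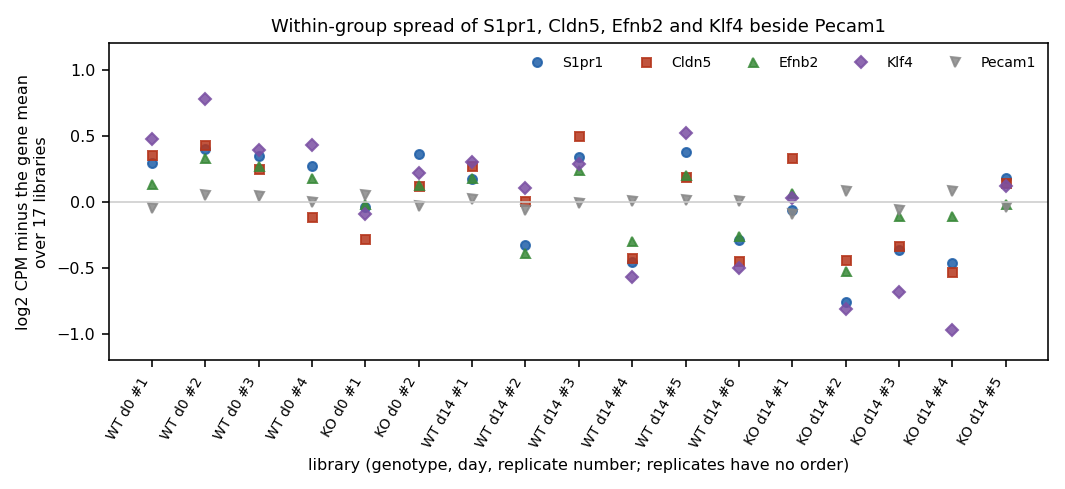
Log2 CPM of S1pr1, Cldn5, Efnb2, Klf4 and Pecam1 in each of the 17 libraries, minus the gene's mean over the libraries; replicates have no order. At day 14 each of the first 4 genes is lower in WT replicates 2, 4 and 6 and in KO replicates 2, 3 and 4 than in the other libraries of the same group, while Pecam1 stays near 0.

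The flow-responsive factor Klf2 was compared with 4 genes known as its targets or partners, as deviations from the group means over the 17 libraries, with 100000 permutations of libraries within groups. Klf4 had Pearson's r = 0.686 (permutation p = 0.0293, adjusted p = 0.117 over the 4 relations) and Spearman's rho = 0.605 (permutation p = 0.0469), and r = 0.587 without the 2 libraries farthest from the median. S1pr1 had r = 0.453 (permutation p = 0.154, adjusted 0.239) and rho = 0.395 (permutation p = 0.198), Nos3 r = 0.147 (permutation p = 0.581, adjusted 0.581) and rho = 0.159 (permutation p = 0.585), and the thrombomodulin gene Thbd r = -0.397 (permutation p = 0.179, adjusted 0.239) and rho = -0.495 (permutation p = 0.0814). Without the 2 farthest libraries r was 0.316 for S1pr1, 0.117 for Nos3 and -0.317 for Thbd. None passed after adjustment.

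Further lists place the 49 genes in their setting. Of 28 ligands, receptors and Notch pathway genes of vessels, 27 could be tested. One of these was called: Cxcl12, a chemokine of vessel and stromal cells, rose with genotype by +0.33 (SE 0.0598, adjusted p = 0.0229) and fell between the days by 0.30 (SE 0.0613, adjusted p = 0.0384). It had 329.2, 367.5, 368.6 and 394.5 CPM in WT and 485.1 and 423.8 CPM in KO at day 0, and 261.0 to 338.5 CPM in WT (median 292.2) and 401.7, 404.4, 376.1, 343.8 and 330.2 CPM in KO at day 14. Both of its differences are opposite in sign to those of Gpr182. The next smallest p-values in that list for genotype belonged to Nrp2 (-0.15, adjusted p = 0.161), Notch1 (-0.25, adjusted p = 0.192) and Gdf2, the BMP9 gene (+0.71, adjusted p = 0.203). Of 28 genes in a list of other endothelial genes, none was called for genotype or day. Hey1 is in both this list and the one before. Sema3c, a secreted semaphorin, had the smallest p for genotype in this list (+0.27, adjusted p = 0.103) and Robo4 followed (-0.20, adjusted p = 0.244). The medians of these lists for genotype were -0.040 and -0.016.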

How the data were processed

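RNA-seq of 17 mouse lung libraries was read from the deposited expected counts per gene, the unit of RSEM; 13.86 to 17.14% of the genes of a library had a count that was not whole. The authors also deposited a table of FPKM. Per the submitters' processing notes, STAR 2.5.3, RSEM 1.3.0 and limma 3.38.3 were used with mm10; the annotation, filters and strand setting are not given in the sources used here. Counts were rounded, filtered by filterByExpr (19557 genes kept), scaled by TMM (0.977 to 1.01) and fitted in edgeR 4.0.16 with all 4 groups (glmQLFit, robust; common coefficient of variation 0.152), and once with genotype and day as separate terms. Two-sided p-values were adjusted by Benjamini-Hochberg over all genes. SE is the log2 value over the root of F. DESeq2 1.42.0, limma 3.58.1 (voom, and log2(FPKM + 1) or + 0.1), other scalings and filters, and fits without each library were tried. The code was tested on simulated data.

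The 49 genes and all lists were chosen with earlier results of these data known. Values per library are given for genes called, genes whose groups did not overlap with an unadjusted p under 0.05 in a single comparison, and 8 anchors (Car4, Ednrb, Plvap, Gpihbp1, Gja5, Vwf, Pecam1, Cdh5); of the other lists, called genes and up to 5 with the smallest p. No library was a copy of another (chi-square per gene 12.4 to 69.4 between libraries of a group). Positions are from GENCODE on GRCm38, promoters from RefSeq. No protein sequence was used here.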

Additional observations from a re-analysis of the deposited data

Results flagged for a closer look

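Within groups of 4, 5 or 6 libraries, the highest or lowest CPM of each of the 49 genes was compared with its neighbour, and 6 of 147 groups had a library set apart by more than Dixon's 95% limit; chance flags about 1 in 20 groups. Car4 had 173.6 CPM in WT day 14 replicate 3, below the other WT libraries of that day (189.9 to 196.7 CPM). Plvap had 804.8 CPM in WT day 0 replicate 3 (others 678.0 to 693.3 CPM) and 733.4 CPM in KO day 14 replicate 5 (others 558.6 to 587.6 CPM). Fibin had 86.94 CPM in KO day 14 replicate 4 (others 50.11 to 59.59 CPM). Selp had 9.678 CPM in WT day 0 replicate 2 (others 3.976 to 4.809 CPM), and Calcrl had 966.1 CPM in WT day 14 replicate 5 (others 1150 to 1225 CPM).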

How the results depend on the processing

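No paired analysis was possible because the labels give the groups no shared replicate numbers. The number of the 49 genes called stayed at 0 for KO against WT at day 0, for day 14 against day 0 in KO and for the difference between the genotype effects under every setting run. For KO against WT at day 14 it was 1, and 3 with DESeq2 (Car4, Flt1, Gpr182), 0 with only the 2 groups in the fit, 0 with log2(FPKM + 1) on unfiltered genes, 2 without both libraries that stood apart (Car4, Plvap), and 0 to 2 without each library in turn. For day 14 against day 0 in WT it was 0, and 2 with DESeq2 and 0 to 1 without each library. For genotype over both days it was 2, and 7 with DESeq2 (Aplnr, Car4, Flt1, Gpihbp1, Gpr182, Plvap, Vwf), 1 with no low-count filter, 1 with log2(FPKM + 1), 0 with the same on unfiltered genes, 1 without both libraries that stood apart, and 1 to 4 without each library. For day over both genotypes it was 1, and 7 with DESeq2 (Apln, Cdh5, Ednrb, Gpr182, Nr2f2, Slc6a2, Sox18), 2 with library sizes only (Cdh5, Gpr182), 0 with log2(FPKM + 1) on unfiltered genes, and 0 to 7 without each library. Calls over all genes differed between these settings as well. The cause of these differences was not tested. No gene changed sign where it was called; of the single values under other settings, 9064 kept their side of the threshold, 30 passed it and 20 lost it, and of the list medians 1066 moved by less than the spread between libraries and 14 by more.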
